A study of Mus musculus with 8 samples.

Results

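The class 3 semaphorins and the neuropilins were measured on 8 Affymetrix arrays of cultured smooth muscle cells from the mouse aorta, which contract to set the tone of the artery. Their 9 genes, of 24704 genes tested, are the secreted ligands Sema3a, Sema3b, Sema3c, Sema3d, Sema3e, Sema3f and Sema3g and the receptors Nrp1 and Nrp2. Each gene was found by its Entrez identifier, and each had 1 probe set. The family was chosen by gene name while the differences between the 2 groups of arrays were already known. Those differences are therefore given as a description of the family and not as a test of it. The 4 arrays labelled as NFAT5 overexpression came from cells given the adenovirus AdN5. The 4 control arrays came from cells given the adenovirus AdPl. Both groups were grown in DMEM with 15% fetal calf serum (FCS), exposed to virus for 24 h and afterwards to cholesterol at 10 µg/ml for 72 h, so serum, cholesterol loading and viral infection were common to all samples. The sources used here give neither the promoter that drives the transgene nor the strain and age of the mice. Nor do the labels say whether replicates were separate cultures, so the errors and p-values measure only the spread between these arrays, which may be technical.

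Class 3 semaphorins are secreted proteins that steer growing axons and migrating vascular and neural crest cells. Most of them bind a neuropilin, which has almost no signalling domain of its own, and the neuropilin joins a plexin that carries the signal to the cytoskeleton. Sema3e is the exception and binds plexin D1 directly. Neuropilins are also co-receptors for vascular endothelial growth factors (VEGF), so the same receptor serves both kinds of ligand in the vessel wall.

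Promoter windows of 7 of the 9 genes were found in the RefSeq table of the mouse assembly GRCm38.p6, for all but Sema3b and Sema3f. Each window runs from 250 bases before to 50 bases after a gene's start. The windows of Sema3d, the member with the largest difference, of Sema3a, its nearest protein-coding neighbour downstream on chromosome 5, and of Sema3e, the member with the smallest difference, are shown 5′ to 3′ because they set the largest and the smallest difference of the family side by side. All 3 lie on the plus strand, at chr5:12382916-12383215 for Sema3d, chr5:13396534-13396833 for Sema3a and chr5:14025026-14025325 for Sema3e. Capitals mark TGGAAA, the core of the sites that NFAT5 and other NFAT factors bind.
Sema3d: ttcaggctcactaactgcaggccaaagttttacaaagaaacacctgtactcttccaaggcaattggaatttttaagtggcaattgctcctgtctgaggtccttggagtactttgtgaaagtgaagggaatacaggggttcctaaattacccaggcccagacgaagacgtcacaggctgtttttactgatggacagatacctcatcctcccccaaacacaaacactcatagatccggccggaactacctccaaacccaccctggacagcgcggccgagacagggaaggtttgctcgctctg
Sema3a: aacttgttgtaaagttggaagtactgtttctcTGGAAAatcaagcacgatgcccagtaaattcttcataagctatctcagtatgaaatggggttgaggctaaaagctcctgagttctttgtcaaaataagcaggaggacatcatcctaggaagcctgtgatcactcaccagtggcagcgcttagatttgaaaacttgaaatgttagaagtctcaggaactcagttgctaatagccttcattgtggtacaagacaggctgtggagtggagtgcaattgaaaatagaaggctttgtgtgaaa
Sema3e: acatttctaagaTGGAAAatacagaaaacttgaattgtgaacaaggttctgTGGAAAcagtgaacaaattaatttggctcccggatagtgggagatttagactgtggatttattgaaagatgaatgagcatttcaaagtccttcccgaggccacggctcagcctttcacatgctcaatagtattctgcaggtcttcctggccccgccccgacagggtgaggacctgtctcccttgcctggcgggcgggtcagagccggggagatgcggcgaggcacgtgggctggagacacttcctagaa
TGGAAA was searched on both strands. It stood 1 time in the Sema3a window, 218 bases before the start, and 2 times in the Sema3e window, 238 and 199 bases before it. It was not in the windows of Sema3c, Sema3d, Sema3g, Nrp1 or Nrp2. Of all 32851 promoter windows of this length, 21.4% held it. The longer tonicity-responsive enhancer consensus, whose first letters are TGGAAA, was in 0 of the 7 windows and in 4.96% of all windows. These are matches of letters in 300 bases and say nothing of binding.

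Nfat5 was not higher in the NFAT5-labelled arrays. Its log2 RMA level was 7.06, 6.95, 6.98 and 6.88 in the NFAT5-labelled arrays, against 7.06, 7.22, 7.11 and 7.25 in the control arrays, a log2 fold change of -0.19 ± 0.078 (SE). RMA, the summary the submitters used, gives background-corrected, quantile-normalised log2 values, and every level and fold change below is on that scale. The groups overlapped and the adjusted p over all genes was 0.36 in limma. The measured transcript thus does not bear out the label, and the sources used here do not say where the probes lie. Every direction below therefore rests on the labels. The smooth muscle markers Acta2 (mean log2 level 11.74 in the NFAT5-labelled and 12.04 in the control arrays) and Tagln (8.46 and 8.39) were bright, while Mylk, Des and Myocd lay under the median of all probe sets (3.76) in both groups. Control replicate 3 and NFAT5 replicate 4 stood together at 1 end of the second principal component, and values that moved by over 1.5 times without them are given so too.

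Among the ligands, Sema3d had the largest difference between the groups. In mice Sema3d guides endothelial and neural crest cells of the heart and its veins. Its log2 level was 5.77, 5.72, 5.67 and 5.85 in the NFAT5-labelled arrays, against 6.64, 6.82, 6.90 and 6.80 in the control arrays. All 4 NFAT5-labelled arrays lay under every control array, with a gap of 0.79 between the nearest arrays, while the SD was 0.078 in the NFAT5-labelled and 0.11 in the control arrays. Its log2 fold change of -1.04 ± 0.083 (SE) put Sema3d at 0.488 of its control level, with a 95% interval of the log2 fold change from -1.22 to -0.85. It was the 15th largest fall among the 102 genes called lower. In bulk RNA, fewer cells that make Sema3d and less Sema3d RNA per cell cannot be told apart.

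Sema3c and Sema3f also had groups that did not overlap, with smaller differences. Sema3c binds both neuropilins and shapes the cardiac outflow tract in mice. Its log2 level was 8.17, 8.05, 8.07 and 8.11 in the NFAT5-labelled arrays and 8.35, 8.45, 8.37 and 8.46 in the control arrays, a log2 fold change of -0.31 ± 0.070 (SE; 95% interval -0.46 to -0.15). The SDs of Sema3c, 0.051 in the NFAT5-labelled and 0.054 in the control arrays, were the smallest of the 9 genes in both groups. Sema3f, a ligand of neuropilin 2, had log2 levels of 6.28, 6.23, 5.92 and 6.29 in the NFAT5-labelled arrays, against 6.41, 6.44, 6.52 and 6.54 in the control arrays. Its log2 fold change was -0.30 ± 0.098 (SE; 95% interval -0.52 to -0.076), and NFAT5 replicate 3 lay apart from the other NFAT5-labelled arrays at the low end. Without that array the log2 fold change of Sema3f was -0.21. Neither gene passed the threshold over all genes.

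Sema3a and Sema3b had lower means in the NFAT5-labelled arrays, with groups that overlapped. Sema3a, the repulsive axon guidance cue that binds neuropilin 1, was a dim gene, with log2 levels of 3.57, 3.65, 3.23 and 3.53 in the NFAT5-labelled arrays and 3.54, 3.83, 4.08 and 3.90 in the control arrays. Control replicate 1 lay within the range of the NFAT5-labelled arrays. The log2 fold change was -0.34 ± 0.13 (SE; 95% interval -0.63 to -0.050), and RMA compresses differences of genes this dim. Sema3b, described as a tumour suppressor in human lung, had log2 levels of 5.85, 5.84, 5.92 and 5.70 in the NFAT5-labelled arrays and 6.05, 5.93, 6.10 and 5.87 in the control arrays. Its log2 fold change of -0.16 ± 0.084 (SE) had a 95% interval from -0.35 to 0.025. Without control replicate 3 and NFAT5 replicate 4 together it was -0.084.

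Sema3e and Sema3g had fold changes near 0. Sema3e, the ligand of plexin D1, had log2 levels of 5.01, 4.88, 5.34 and 5.14 in the NFAT5-labelled arrays and 5.14, 5.20, 5.02 and 5.01 in the control arrays. The control arrays all lay within the range of the NFAT5-labelled arrays, and the 95% interval of its log2 fold change (0.0015) ran from -0.24 to 0.24. Sema3g, a semaphorin made by endothelial cells, lay under the median probe set in all 8 arrays, at 3.52, 3.18, 3.35 and 3.21 in the NFAT5-labelled arrays and 3.70, 3.01, 3.39 and 3.06 in the control arrays. Its 95% interval, from -0.32 to 0.38, leaves room for differences as large as those of Sema3c or Sema3f, in either direction.

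The neuropilins had higher means in the NFAT5-labelled arrays, unlike 5 of the 7 ligands. Nrp2, the receptor of Sema3f and a co-receptor for VEGF-C, had log2 levels of 6.88, 6.60, 7.0 and 6.72 in the NFAT5-labelled arrays, against 6.37, 6.14, 6.21 and 6.60 in the control arrays. The groups overlapped by 0.0068, since NFAT5 replicate 2 lay just under control replicate 4. The log2 fold change of Nrp2 was 0.47 ± 0.13 (SE; 95% interval 0.19 to 0.75), 1.38 times the control level. Nrp1, the receptor of Sema3a and a co-receptor for VEGF-A, had log2 levels of 7.51, 7.30, 7.39 and 7.38 in the NFAT5-labelled arrays and 7.33, 7.31, 7.27 and 7.11 in the control arrays. Its log2 fold change of 0.14 ± 0.083 (SE) had a 95% interval from -0.043 to 0.33, and the value was 0.092 without control replicate 4. Neither neuropilin passed the threshold over all genes.

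**Figure D1:**
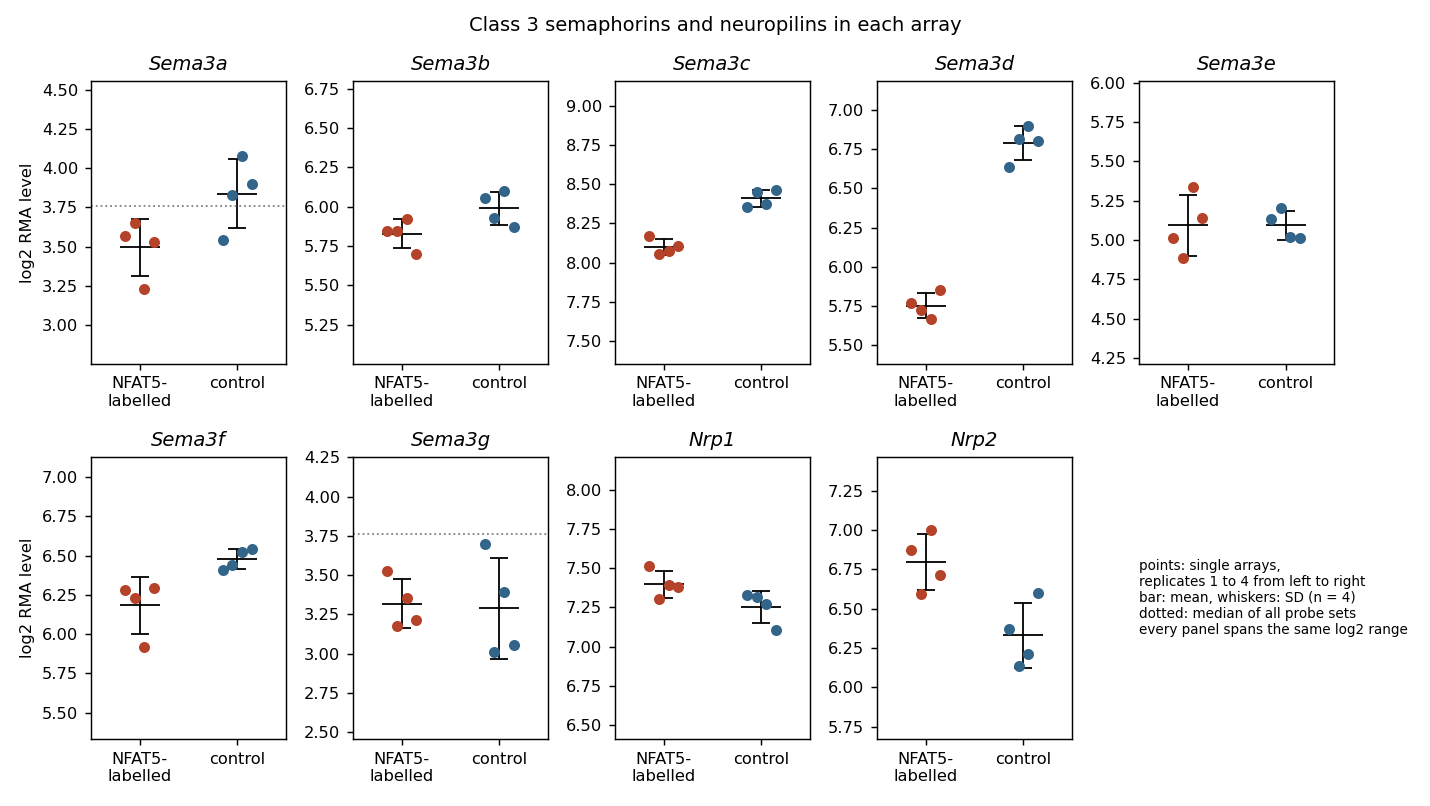
Log2 RMA level of the 7 class 3 semaphorins and the 2 neuropilins in each array, NFAT5-labelled on the left and control on the right of each panel, with the mean and SD (n = 4) and the median of all probe sets as a dotted line where it falls in the panel. Sema3d lay between 5.67 and 5.85 in the NFAT5-labelled arrays and between 6.64 and 6.90 in the control arrays. The groups of Sema3a, Sema3b, Sema3e, Sema3g, Nrp1 and Nrp2 overlapped.

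Counted over the family, 1 of the 9 members (Sema3d) was called at an adjusted p under 0.05 in limma over all genes, in the lower direction, and 0 were called higher. Without control replicate 3 and NFAT5 replicate 4 together the count was again 1. Of all genes 0.777% were called, 0.413% lower and 0.364% higher. At an unadjusted p under 0.05 there were 5 of the 9 members and 3097 of all 24704 genes. The groups did not overlap for 3 members (Sema3c, Sema3d and Sema3f), each lower in the NFAT5-labelled arrays, as for 8.78% of all genes, 4.56% lower and 4.22% higher. The median log2 fold change was -0.30 over the 7 ligands and 0.30 over both neuropilins, against 0.0042 over all genes. As the family was picked with this contrast in view, nothing is read from these counts.

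The values of single members depended to differing degrees on single arrays. With each array left out in turn, the log2 fold change of Sema3d ran from -1.087 to -0.9997, and Sema3d was called in 8 of 8 such fits. That of Sema3c ran from -0.33 to -0.29 and that of Nrp2 from 0.40 to 0.56. Those of Sema3e (-0.080 to 0.071) and Sema3g (-0.064 to 0.17) changed sign, and without control replicate 3 and NFAT5 replicate 4 together they were -0.039 for Sema3e and 0.098 for Sema3g. With a variance trend and robust estimation, Sema3c and Nrp2 were called beside Sema3d, which made 3 members, and 781 genes were called in all.

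**Figure D2:**
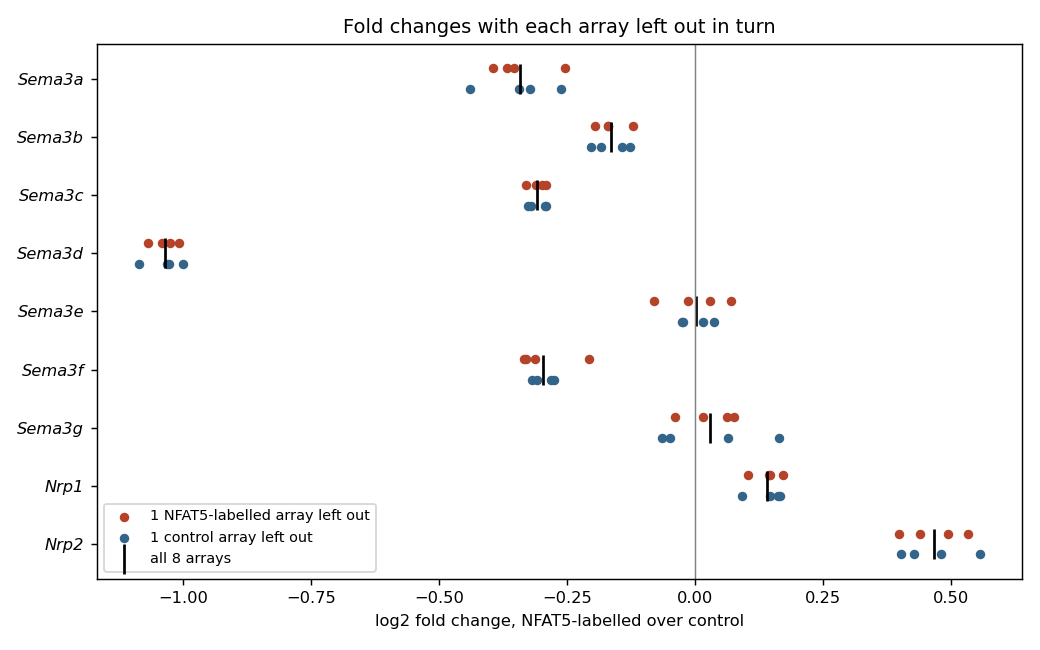
Log2 fold change (NFAT5-labelled over control) of each member with 1 NFAT5-labelled array left out, with 1 control array left out and with all 8 arrays. The values of Sema3d stayed between -1.087 and -0.9997, those of Nrp2 between 0.40 and 0.56, and those of Sema3e and Sema3g lay on both sides of 0.

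Of the markers of other cells, those of macrophages and fibroblasts differed between the groups in their mean level. All 9 measured macrophage markers (of 10 listed) had log2 fold changes above 0, as did 12607 of all 24704 genes. Of these, 3 were called higher, Adgre1 (0.68), Laptm5 (0.53) and Cd68 (0.52), as were 0.364% of all genes. Tyrobp (0.47), Fcer1g (0.30), Csf1r (0.14) and Cd14 (0.11) lay over the median probe set in both groups and were not called. The groups overlapped for Csf1r and Cd14. Ptprc and Aif1 lay under the median probe set in both groups. The mean log2 level of the 9 markers per array ran from 6.28 to 6.41 in the NFAT5-labelled arrays and from 5.83 to 6.05 in the control arrays. Of 10 fibroblast markers 8 had log2 fold changes below 0, as did 12097 of all genes. Only Ly6c1 was called (-1.24, limma adjusted p = 0.0468), and its mean in the NFAT5-labelled arrays (2.79) lay under the median probe set. Tcf21 and Scara5 lay under the median probe set in both groups. The fibroblast means per array ran from 4.77 to 4.98 in the NFAT5-labelled arrays and from 5.22 to 5.26 in the control arrays. The endothelial means overlapped, at 4.10 to 4.31 in the NFAT5-labelled arrays and 4.14 to 4.29 in the control arrays, with Kdr, Tie1, Esam, Cldn5 and Vwf under the median probe set in both groups. The means of 5 nerve or Schwann cell markers (of 7 listed) overlapped too, at 3.30 to 3.47 in the NFAT5-labelled arrays and 3.20 to 3.499 in the control arrays. Of these markers, S100b, Sox10, Mbp and Erbb3 lay under the median probe set in both groups, which limits what the overlap can show. The means of 10 smooth muscle markers also overlapped, at 5.86 to 6.08 in the NFAT5-labelled and 5.93 to 5.98 in the control arrays. The part of other cells in the differences of Sema3d, Nrp2 and the other members was not tested.

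Of the 80 measured genes on 7 lists of partners, 1 rose and 1 fell in the NFAT5-labelled arrays and 78 did not pass. Over all genes 0.364% were called higher and 0.413% lower. The lists were chosen with earlier results of these data known, so these counts are a description and not a test. The fallen gene was Chl1, a cell adhesion molecule that serves as a co-receptor in the response to Sema3a in mouse neurons. It had the largest fall of all 24704 genes tested. Its log2 level was 5.81, 6.16, 6.003 and 6.03 in the NFAT5-labelled arrays, against 8.17, 7.94, 8.04 and 8.12 in the control arrays. All arrays of the groups were apart, and the log2 fold change of -2.07 ± 0.094 (SE) had an adjusted p of 4.39e-05 in limma. The risen gene was Pgf, placental growth factor, a VEGF family ligand of Flt1 that also binds neuropilins. Its log2 level was 4.90, 4.92, 5.06 and 4.94 in the NFAT5-labelled arrays, against 4.38, 4.09, 4.53 and 4.27 in the control arrays. Pgf had a log2 fold change of 0.64 ± 0.10 (SE; limma adjusted p = 0.0269), higher in all 4 NFAT5-labelled arrays than in any control array. Of the 8 fits that each leave out 1 array, the one without control replicate 3 kept the call, the other 7 had adjusted p up to 0.102 in limma, and was lost without control replicate 3 and NFAT5 replicate 4 together (0.0820).

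Plexins, the signalling receptors, did not pass: 0 of 9 were called in limma and 5 had an unadjusted p under 0.05. At that unadjusted p there were 3097 of all 24704 genes. The log2 fold changes of the plexins ran both ways around a median of 0.042. Plxna2, a partner of neuropilins, was at 4.74, 4.61, 4.51 and 4.16 in the NFAT5-labelled arrays and 5.09, 5.08, 4.81 and 5.29 in the control arrays (log2 fold change -0.57 ± 0.14, SE; adjusted p = 0.132 in limma). Its groups did not overlap, but the difference was not past the threshold. The groups did not overlap for 3 of the 9 plexins, Plxna2 and Plxna3 among them, against 8.78% of all genes. At the other end was Plxna3, also a neuropilin partner, at 5.08, 5.03, 5.04 and 5.08 in the NFAT5-labelled arrays and 4.73, 4.65, 4.23 and 5.01 in the control arrays (0.40 ± 0.14; adjusted p = 0.279 in limma). Control replicate 3 was the lowest control array for Plxna3, and the log2 fold change was 0.26 without it and 0.25 without it and NFAT5 replicate 4. Plxnd1, the receptor of Sema3e, was at 6.77, 6.59, 6.62 and 6.59 in the NFAT5-labelled arrays and 6.46, 6.64, 6.71 and 6.61 in the control arrays, a log2 fold change of 0.040 with a 95% interval from -0.15 to 0.23. Its log2 fold change was -0.00081 without NFAT5 replicate 1, -0.0094 without control replicate 1 and 0.076 without control replicate 3. Leaving out control replicate 3 together with NFAT5 replicate 4 gave 0.093. Plxnd1 was named after its values were seen.

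Among the 8 VEGF ligands and receptors that use neuropilins, Pgf was the only one called, against 0.777% of all genes. An unadjusted p under 0.05 was found for 4 of the 8 and for 3097 of all 24704 genes. The groups did not overlap for 3 of the 8, against 8.78% of all genes. The median log2 fold change was 0.047, and the lowest value was that of Vegfd (-0.23 ± 0.076, SE). The 8 co-receptors of the complex had a median of -0.087, with Chl1 at one end and the receptor-like pseudokinase gene Ptk7 (0.30 ± 0.11) at the other. Of these 8, 1 was called, 3 had an unadjusted p under 0.05 and 3 had groups that did not overlap. Of 13 semaphorins of classes 4 to 7, the membrane-bound relatives, 0 were called in limma. An unadjusted p under 0.05 was found for 2 of them, as for 3097 of all 24704 genes. Their median log2 fold change was -0.021, between Sema5a (-0.51 ± 0.18), which has thrombospondin repeats, and Sema4d (0.18 ± 0.083), a ligand of plexin B1. Both ends moved without NFAT5 replicate 4, to -0.30 for Sema5a and 0.12 for Sema4d, and without that array and control replicate 3 they were -0.32 and 0.12. Sema6a (-0.34 ± 0.10), a transmembrane semaphorin named after its values were seen, was at -0.36 without NFAT5 replicate 4 and then lay under Sema5a. The median of the 7 class 3 ligands, -0.30, was lower than that of the other classes. The class 3 family was chosen with its differences already known, so this is a description and was not tested.

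Downstream of the plexins 0 of 21 measured genes were called, 5 had an unadjusted p under 0.05, and the median log2 fold change was -0.0019. The ends were Farp2 (-0.27 ± 0.096), an exchange factor that acts in Sema3a signalling in neurons, and Rnd1 (0.24 ± 0.10), a small GTPase that binds plexins. Of 4 proprotein convertases, the proteases that cut class 3 semaphorins, 0 were called and 1 had an unadjusted p under 0.05, with Pcsk6 at -0.27 ± 0.090 and Furin at 0.058 ± 0.066. The slits, netrins and their receptors, another guidance system, had a median of -0.012 over 18 genes. None of them was called in limma (0 of 18, with 3 at an unadjusted p under 0.05), and the slit receptor gene Robo2 (-0.53 ± 0.16) and Ntn1 (0.30 ± 0.085), encoding netrin 1, formed the ends. Beside these counts, 3097 of all 24704 genes had an unadjusted p under 0.05 and 0.777% were called, and nothing is read from the counts. Fold changes in the guidance and signalling lists are log2 fold changes with SE.

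**Figure D3:**
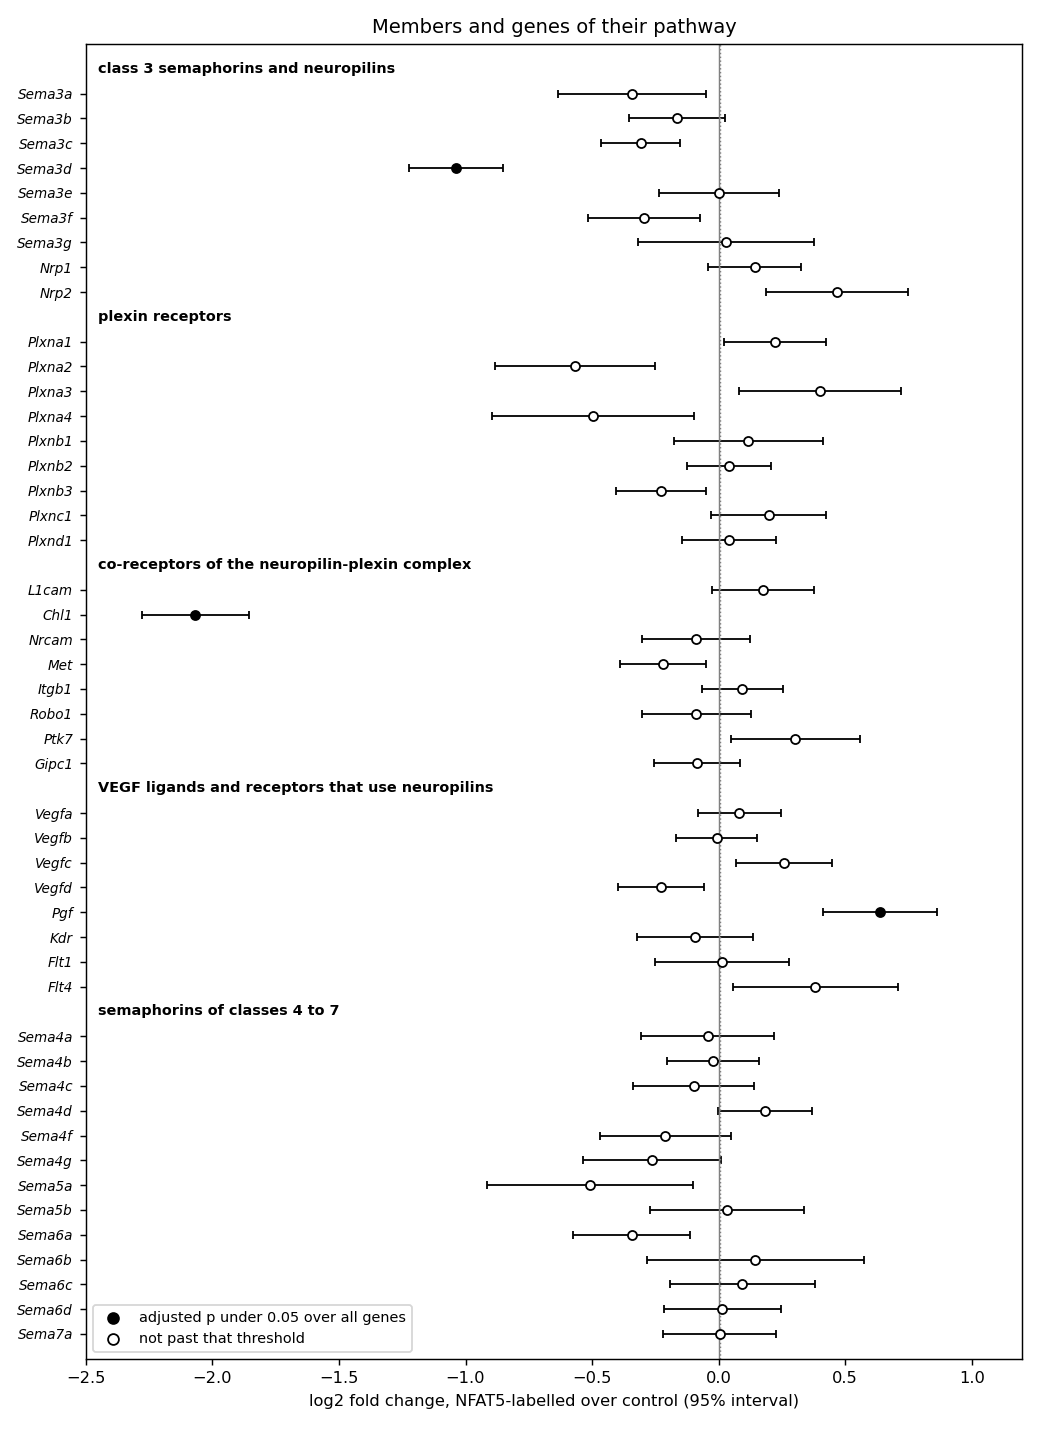
Log2 fold changes (NFAT5-labelled over control) with 95% intervals of the members and of 4 lists of partners, filled where the adjusted p over all genes was under 0.05 and open otherwise, with a solid line at 0 and a dotted line at the median of all genes. Sema3d (-1.04), Chl1 (-2.07) and Pgf (0.64) are the filled points, and the plexins lie on both sides of 0.

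For the members with the largest differences, Sema3d and Nrp2, the named genes with the nearest pattern over the 8 arrays were looked up by the root mean square (RMS) difference of log2 levels centred on each gene's mean. Nearest to Sema3d was Gabra3, a subunit of GABA-A receptors, with an RMS difference of 0.087. It lay at 6.14, 6.201, 6.02 and 6.17 in the NFAT5-labelled arrays and 7.04, 7.17, 7.06 and 7.08 in the control arrays. Sncg, encoding gamma-synuclein (0.11), and Fabp7, a fatty acid binding protein of glial cells (0.14), came next. Their log2 fold changes were -0.95 ± 0.074 for Gabra3, -1.06 ± 0.080 for Sncg and -1.22 ± 0.089 for Fabp7 (SE). All 3 were among the genes called lower, as were 0.413% of all genes. Genes chosen for closeness to Sema3d have a like fold change by that choice, so their calls are not a separate result.

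Nearest to Nrp2 were Nmnat2, an enzyme of NAD synthesis (RMS difference 0.079), the replication factor gene Mcm10 (0.085) and Tyrobp, a signalling adaptor of myeloid cells (0.093). Tyrobp was also on the list of macrophage markers above. The log2 fold changes of these 3 genes were 0.42 ± 0.11 for Nmnat2, 0.48 ± 0.13 for Mcm10 and 0.47 ± 0.11 for Tyrobp (SE), and 0 of the 3 were called. Like Nrp2, all 3 were highest in NFAT5 replicate 3 among the NFAT5-labelled arrays and highest in control replicate 4 among the control arrays. These genes were picked for their closeness out of all named genes, so the closeness is a description and has no test.

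**Figure D4:**
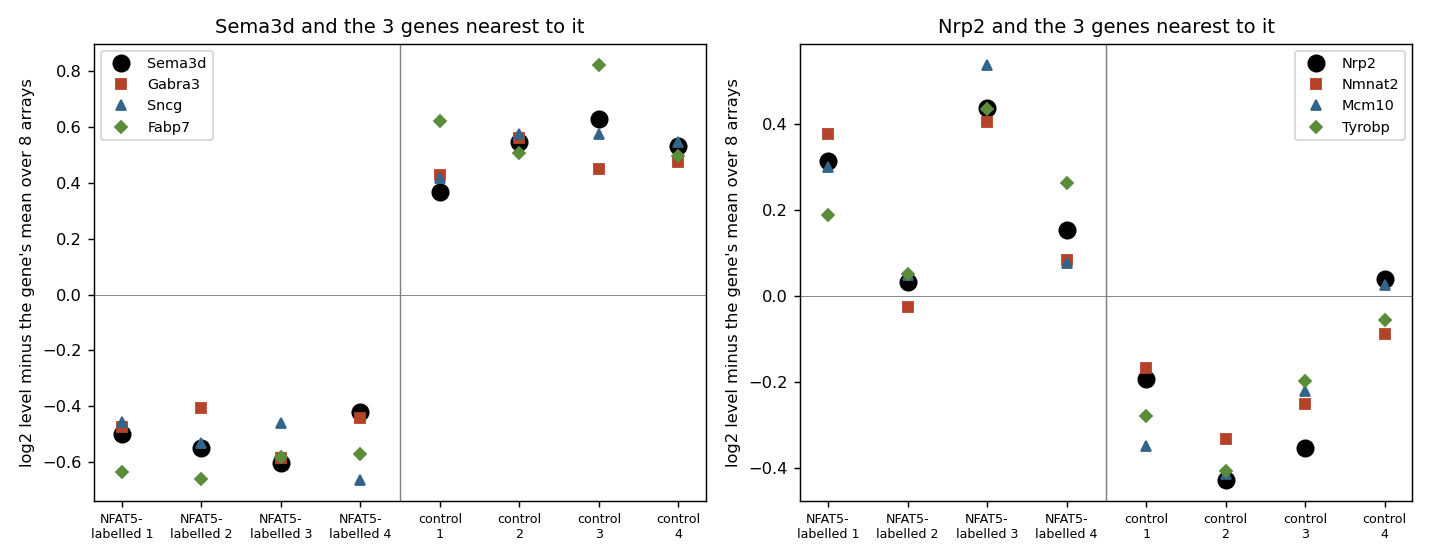
Log2 level minus the gene's mean over 8 arrays for Sema3d (left) and Nrp2 (right), each with the 3 named genes whose pattern was nearest, NFAT5-labelled arrays left of the line and control arrays right of it. Sema3d, Gabra3, Sncg and Fabp7 were under their means in all NFAT5-labelled arrays, while the values of Nrp2 in NFAT5 replicate 2 (6.60) and control replicate 4 (6.60) meet near its mean.

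In the RefSeq gene order, Sema3d and Sema3a were adjacent protein-coding genes on chromosome 5, and Sema3e lay on the same chromosome with 4 protein-coding genes between it and Sema3d. Of this group of neighbours Sema3d was called, while Sema3a (log2 fold change -0.34) and Sema3e (0.0015) were not. On chromosome 9, Sema3b and Sema3f were separated by 3 protein-coding genes. The next protein-coding gene after Sema3c was Cd36, a scavenger receptor for oxidised lipoproteins, which rose by 0.85 ± 0.14 (SE) while Sema3c was at -0.31. These neighbours were chosen after their values were seen.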

How the data were processed

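Total RNA of 8 samples was hybridised to 1-colour Affymetrix arrays. The authors deposited log2 values from RMA, per the submitters' processing notes. The sources used here give no RMA version, genome build or probe annotation. After RMA all arrays share 1 distribution, which hides any shift common to all genes, and differences of dim genes are compressed.

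Of 25428 probe sets, 24705 had 1 gene symbol in the platform table and 723 stay unnamed. For a symbol with more than 1 probe set the brightest was kept, which left 24704 genes, with no filter on dim genes. Groups came from the titles. Groups were compared by lmFit and eBayes of limma 3.58.1 (R 4.3.3, two-sided, no covariates) over all genes, with Benjamini-Hochberg adjustment and calls at an adjusted p under 0.05. The fit was also run on simulated data with independent noise in each array, which cannot show how independent the real arrays are. The number of arrays, 4 per group, limits the precision, and the median SE of a log2 fold change was 0.11.

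The members and lists were chosen with earlier results of these data known. The genes named are the 9 members, Nfat5, of each list the called genes and both ends, and the 3 genes nearest in pattern to each of the 2 members with the largest difference. The markers other than Tyrobp, the neighbouring genes outside the family, Plxnd1, Sema6a and Rras are named beyond that rule. On the lists of partners 80 of 81 genes were measured. Alternatives were a replicate block, 2 normalisations, 2 filters, a variance trend, array weights, 2 thresholds and each array left out. Same-numbered arrays did not deviate together (correlations -0.079 to 0.055), so the numbers were not taken as pairs. Figures were drawn with matplotlib 3.10.9.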

Additional observations from a re-analysis of the deposited data

Results flagged for a closer look

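In 2 of 60 groups of 4 arrays screened, 1 array lay apart from the other 3, and chance flags about 1 in 20 such groups. Screened were both groups of the 30 genes set by the naming rule. Of the markers only Tyrobp was among them. The neighbouring genes outside the family, Plxnd1, Sema6a and Rras were not screened. Sema3f was at 5.92 in NFAT5 replicate 3, against 6.23 to 6.29 in the other NFAT5-labelled arrays. Sema4d was at 4.12 in NFAT5 replicate 4, against 3.85 to 3.88 in the other NFAT5-labelled arrays.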

How the results depend on the processing

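The call of Sema3d was kept in all 16 alternative fits and at both stricter thresholds. The number of called members was 1 in 16 of 18 alternatives, 2 where only genes over the median level were tested (Sema3c added) and 3 with a variance trend and robust estimation (Sema3c and Nrp2 added). Over all genes 192 were called. This count was 14 with a replicate block, 781 with a variance trend and robust estimation, 497 among genes above the median, 42 at an adjusted p under 0.01, 110 with a fold change of at least 1.5, and 56 to 88 with an array left out. It was 30 without control replicate 3 and NFAT5 replicate 4 together, an alternative chosen after seeing the data. Of the genes on the lists of partners 2 were called. This count was 1 with the replicate block, at an adjusted p under 0.01 and without those 2 arrays, 5 with a variance trend and robust estimation (Plxna2, Rras and Vegfd added), and 1 to 2 with an array left out. Pgf lost its call with the replicate block (adjusted p = 0.0946 in limma, and 0.00799 to 0.102 over its alternatives). The sign of Sema3e turned with array weights (-0.0082) and without those 2 arrays (-0.039), and with 4 of the 8 arrays left out in turn (range over the 8 fits -0.080 to 0.071). That of Sema3g turned with 3 of them left out (range -0.064 to 0.17). That of Plxnd1 turned with 2 left out (range -0.0094 to 0.076). The causes were not tested. Alternatives for single genes outside the family were added after seeing the data. Same-numbered arrays in the replicate block fit share only a number. With the block 1 of 9 members and Chl1 remained called, and 1 of 4 numbers correlated best with its own partner. The levels of Sema3a and Sema3g near or under the median probe set limit what their differences can show.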
